A study of Homo sapiens with 76 samples.

Results

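MALAT1, NEAT1 and RNA28S5 are non-coding RNAs of the nucleus and the ribosome, and their counts were examined in 76 single HEK293 cells, an established human embryonic kidney line. They were taken by name from a table of 17513 gene rows, and all 3 were present. They were chosen by their UMI counts, by their spread over these cells and by their relation to cell RNA content, as abundant non-coding RNAs. These values are therefore given here as descriptions. The cells carried no treatment and formed 1 group: they grew in DMEM with fetal calf serum and glutamine, were captured one by one on a Fluidigm C1 chip and were lysed with a nominal 20000 molecules of ERCC spike-in RNA each. The libraries kept the 5' ends of cDNA and tagged each cDNA molecule with a unique molecular identifier (UMI), so that copies from PCR were counted once. The labels name no separate cultures, so the 76 cells were treated as 1 sample, every ± is an SD over cells, and no test between groups was made.

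MALAT1 is a long RNA retained in the nucleus, where it collects at nuclear speckles, bodies rich in splicing factors. NEAT1 is the scaffold of another nuclear body, the paraspeckle: its long form is needed to build the body and its short form shares the same start. The 28S rRNA is the large RNA of the large ribosomal subunit, cut from a precursor made by RNA polymerase I in the nucleolus. The short form of NEAT1 has a poly(A) tail, whereas the 3' ends of MALAT1 and of long NEAT1 are cut by RNase P and end in an A-rich tract held in a triple helix. Mature 28S rRNA is made without the polyadenylation that messenger RNAs receive.

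Reverse transcription was primed here with oligo-dT, so the stretches of A within these RNAs bear on what could be counted. Per the labels' protocols, the primer carried a run of 30 T behind a constant part, and the UMI was added at the other end by a template switching oligonucleotide. The constant parts are shown because they are the designed ends of each counted cDNA.
Reverse transcription primer: tgcggtatctaaagcggtgag
Template switching oligonucleotide: gcaatgaagtcgcagggttg

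The A tracts encoded in the transcripts themselves are shown from GENCODE 29 transcript sequences (5' to 3', DNA letters), with the run of A in capitals. MALAT1-202 is the annotated transcript of 8708 bases, and the stretch covers its positions 8267 to 8379. NEAT1-202 is the long form of 22743 bases, shown by its last 100 bases and by positions 18026 to 18087 around its longest run of A. NEAT1-201 is a short form of 3441 bases, shown by its last 60 bases with no capitals.
MALAT1-202: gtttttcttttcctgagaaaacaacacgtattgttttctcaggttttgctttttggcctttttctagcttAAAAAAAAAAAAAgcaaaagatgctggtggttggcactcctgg
NEAT1-202, 3' end: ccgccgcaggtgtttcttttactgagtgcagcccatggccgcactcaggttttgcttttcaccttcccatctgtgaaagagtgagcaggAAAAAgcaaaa
NEAT1-202, longest run: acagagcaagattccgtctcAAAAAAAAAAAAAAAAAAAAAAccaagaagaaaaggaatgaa
NEAT1-201: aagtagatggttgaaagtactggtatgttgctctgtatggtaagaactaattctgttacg

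MALAT1-202 held 1 run of at least 10 A, 13 bases long at positions 8337 to 8349. The bases gatgctggtgg, which follow the end of the A-rich tract, begin the tRNA-like RNA that RNase P releases. Among 1273 GENCODE transcripts within 10% of its length, 568 (44.6%) held such a run. NEAT1-202 held 5 runs, the longest of 22 bases at positions 18046 to 18067, and 15 of 28 transcripts of like length (53.6%) held at least 1. The short forms NEAT1-201 and NEAT1-203 held 0 such runs, their longest run of A being 5 bases, and 15.7% and 16.3% of transcripts of their lengths held one. The final 11 bases of NEAT1-202, AAAAAGCAAAA, searched on the transcript's own strand and overlapping the run of A, also stand at the end of the MALAT1-202 tract, from position 8345. MALAT1-202 held 2 matches, of which that at 8345 is the last. The 11 bases were held by 4.24% of transcripts of the length of MALAT1-202 and 21.4% of those of the length of NEAT1-202. The longest run of letters that the 2 printed 3' stretches share, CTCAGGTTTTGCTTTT, covers part of the U-rich element known to pair with the A tract. It was found once in each RNA and, within 10% of their lengths, in 1 of 1273 and 1 of 28 transcripts, the RNA itself included. Where along the RNA the deposited UMIs began is not recorded in the table, so these matches describe the transcripts and not the site of priming.

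Depth set the precision of what follows. A cell gave 7305 to 43392 endogenous UMIs (median 20966) and 1390 to 3132 ERCC UMIs (median 2198.5). The ratio of the 2, endogenous UMIs per ERCC UMI, is used as RNA content and ran from 3.69 to 21.2 (median 9.38, coefficient of variation 35.3%). The 6 genes fixed as HEK293 markers were all detected, with UCHL1 and VIM in 70 cells each, NEFM in 49, KRT18 in 45, NEFL in 26 and KRT8 in 19. Of 12 markers of blood, fibroblast, muscle and liver cells, 5 were in the table and 4 of those had a UMI: HBA1 gave 5 UMIs, COL1A1 12, MYH11 3 and APOA1 1. A cell had at most 1 UMI of the blood marker, 3 of the fibroblast and muscle markers and 1 of the liver markers. Doublets were not called.

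MALAT1 was among the more abundant RNAs of the table and its level differed widely between cells. Its UMIs per cell ran from 0 (cell 32, by the number in the cell's title) through a median of 29 to 115 (cells 26 and 35), with a mean of 34.8 ± 28.6 over 76 cells. By mean it ranked 107 of 17513 genes. UMIs mark 1 end of each molecule and were not divided by length. It was seen in 75 of 76 cells (98.7%, exact Clopper-Pearson 95% interval 92.9% to 99.97%). Cell 32, where it was not seen, had 8272 endogenous UMIs, a depth that allows a share of up to 0.0363% by the limit of 3 counts. Intervals and limits here cover counting error only.

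Low and high cells for MALAT1 formed a continuous range rather than separate groups. There were 17 cells with 0 to 9 UMIs, 13 with 10 to 19, 18 with 20 to 39, 14 with 40 to 59, 9 with 60 to 79 and 5 with 80 or more. Cells 56, 80 and 25 had 1, 2 and 2 UMIs. Cell 80 had 20785 endogenous UMIs and cell 25 had 21835, both near the median depth. At the other end cell 35 reached 115 UMIs from 16598 endogenous UMIs, and cell 26 the same 115 from 32738. The 5 highest cells held 19.7% of all MALAT1 UMIs.

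As a share of a cell's endogenous UMIs, MALAT1 took 0.166% ± 0.140, from 0% through a median of 0.126% to 0.693% (cell 35). The middle of the distribution was wide too: the upper quartile, 0.252%, was 4.58 times the lower one, 0.0550%. Per 1000 ERCC UMIs, a scale free of the cell's own RNA total, the median was 14.6 and the highest 58.1, again cell 35. Taken against the nominal 20000 spike-in molecules, that median stands for 291 molecules per cell (mean 317 ± 258, highest 1161) if spike-ins and cellular RNA were captured alike.

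RNA28S5 was seen in every cell, at a mean close to that of MALAT1 but over a narrower range. Its UMIs per cell ran from 9 (cells 32 and 56) through a median of 30 to 78 (cell 16), with a mean of 32.3 ± 15.5 (rank 113 of 17513). Most cells lay together: 41 of 76 had 20 to 39 UMIs, 15 had 10 to 19, 12 had 40 to 59 and 6 had 60 to 79, with 2 below 10. The upper quartile of its share, 0.171%, was 1.76 times the lower, 0.0970%, against 4.58 times for MALAT1. The lowest share was 0.0471% (cell 12), the median 0.131% and the highest 0.671% (cell 16). The cells of highest share, 16, 10, 96 and 36, had only 7305 to 13213 endogenous UMIs, whereas cell 12, the lowest, had 38242.

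The small-subunit rRNA, cut from the same precursor, was nearly absent from the counts. RNA18S5 gave 3 UMIs in 3 cells against 2458 UMIs of RNA28S5, a ratio of 819 (exact 95% counting interval 280.0 to 3976). No gene row carried the name RNA5-8S5 or RNA45S5. The mitochondrial rRNAs MT-RNR2 and MT-RNR1 gave 279 ± 163 and 209 ± 147 UMIs per cell. In RefSeq (GRCh38.p14) 5 genes for 28S rRNA and 6 pseudogenes are listed, and 2 of those genes carry RNA28S5 as an older name. The count of RNA28S5 is uncertain to the extent that reads could be shared among such copies. It covers only molecules reverse transcribed in an oligo-dT protocol, and where they were primed is not recorded.

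NEAT1 was sparse. It gave 136 UMIs in all and was seen in 53 of 76 cells (69.7%, exact Clopper-Pearson 95% interval 58.1% to 79.8%), at 1.79 ± 1.98 UMIs per cell (rank 1762 of 17513). Its count was 0 in 23 cells, 1 in 21, 2 in 10, 3 in 12, 4 or 5 in 2 each, 6 in 3, 7 in 1 (cell 50) and 8 in 2 (cells 9 and 66). In the 23 cells at 0, the limit of 3 counts allows a share of up to 0.00722% to 0.0310%, depending on depth, and in 21 of them that limit exceeds the mean share of NEAT1 (0.00868% ± 0.0102). At this depth those 21 cells cannot be told from cells at the average level. The median of 1 UMI corresponds to 0.494 UMIs per 1000 ERCC UMIs. NEAT1 and MALAT1 are neighbours on chromosome 11, with 4 entries between them in RefSeq.

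**Figure D1:**
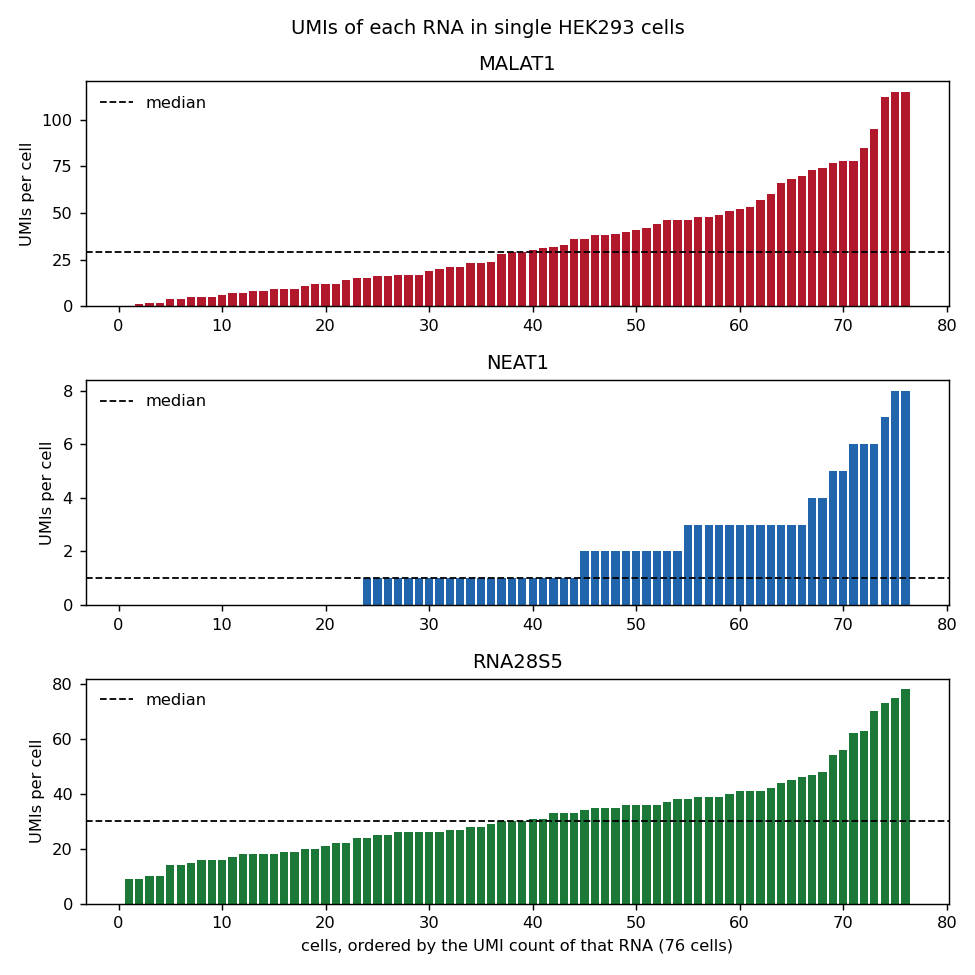
UMIs per cell (vertical axis, separate scale in each panel) of MALAT1, NEAT1 and RNA28S5 in 76 cells, each panel ordered by its own count, with the median as a dashed line. MALAT1 climbs steadily from 0 to 115, RNA28S5 stays between 9 and 78 with most cells near its median of 30, and NEAT1 takes values from 0 to 8.

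The spread of each RNA was set against counting noise and against the spike-ins. Pearson dispersion compares a gene's counts with those expected from each cell's endogenous total, and pure counting gives 1. Among 36 spike-ins averaging at least 1 UMI, scaled by spike-in totals, the median was 1.53 and the highest 2.20. Of 2810 genes with a mean of at least 1 UMI, 606 (21.6%) lay above that highest spike-in, and so did MALAT1, NEAT1 and RNA28S5. As they were chosen with spread in view, nothing is read from that count.

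MALAT1 had a dispersion of 22.6, the fifth highest of the 2810 genes, behind the histone gene HIST1H4C (90.3) and the mitochondrial RNAs MT-RNR2 (49.7), MT-RNR1 (43.4) and MT-TP (32.1). The median gene was at 1.76. Of 71 other genes within 1.5 times its mean, 1 was higher, their median was 2.87, and 4 spike-ins in that range lay between 1.44 and 1.81. The coefficient of variation of its share was 84.1%, where counting alone at its mean would give 16.95%, and the median of those 71 genes was 30.6%. Leaving out any 1 cell kept the dispersion between 19.3 (without cell 35) and 22.9. Its place was 10 of 2810 when counts were scaled by spike-ins.

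RNA28S5 had a dispersion of 12.3, rank 14 of 2810. Of 74 other genes within 1.5 times its mean, 4 were higher, with a median of 2.88, and 5 spike-ins in that range lay between 1.44 and 2.04. The value depended on the scale. Against spike-in totals it was 7.36 (rank 112 of 2810), and the coefficient of variation was 49.8% per ERCC UMI against 68.3% as a share. For MALAT1 those coefficients were 81.4% and 84.1%. The spread of RNA28S5 was thus smaller per spike-in than as a share, while the values for MALAT1 lay close together. Without cell 16 the RNA28S5 dispersion was 9.75.

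NEAT1 lay just above the highest spike-in, at 2.27 (rank 518 of 2810). Genes next to that threshold were NDUFB10, RPS14 and GMPR2 on the upper side, at 2.20, and KARS, SEPHS2 and NKAP on the lower, at 2.19 to 2.20. Of 1219 genes within 1.5 times its mean, 97 were higher. Without cell 16 its dispersion was 2.00 and with spike-in totals as the scale it was 2.17, both under the highest spike-in.

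**Figure D2:**
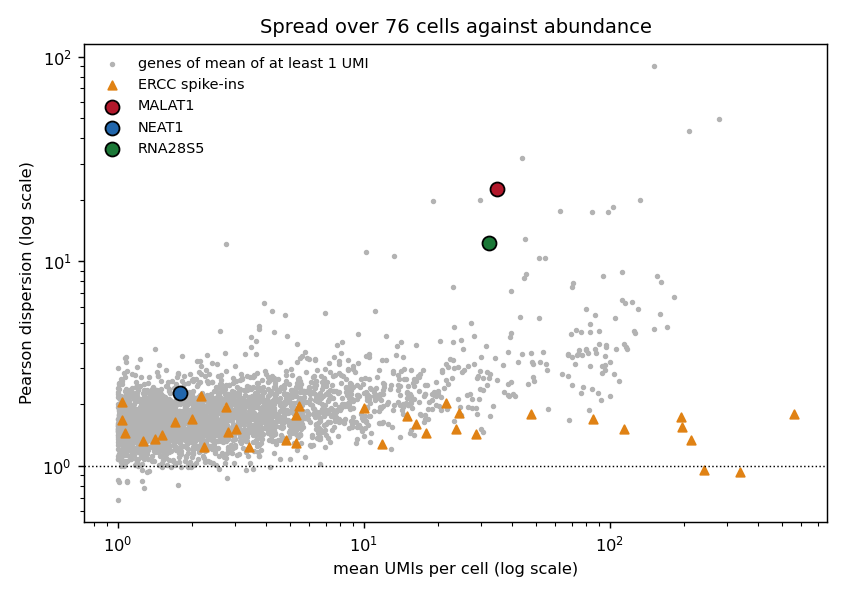
Pearson dispersion over 76 cells (vertical log axis) against mean UMIs per cell (horizontal log axis) for 2810 genes (grey), 36 ERCC spike-ins (triangles) and the 3 RNAs (large points), with the counting level of 1 dotted. MALAT1 at 22.6 and RNA28S5 at 12.3 lie well above most genes of like abundance, of which 1 and 4 are higher. NEAT1 at 2.27 lies within the cloud.

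The relation to RNA content was described in several ways, since a member per ERCC UMI and the RNA content share the spike-in count, while a share and the RNA content share the endogenous count. RNA content was taken from all other endogenous genes. A slope from a log-linear Poisson fit states how the level per spike-in scaled with RNA content over the 76 cells: 1 is proportional and 0 is no change. The median slope over 2810 genes was 1.07, the 5th percentile 0.548 and the 95th percentile 1.67. These are descriptions over cells of 1 sample that differ in capture and depth, and no p-value is given.

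RNA28S5 scaled least. Its slope was 0.138, below all 74 other genes within 1.5 times its mean (0.480 to 1.41, median 0.945), and 15 of 2810 genes had a lower one. By this fit its level per ERCC UMI changed little while RNA content rose from 3.69 to 21.2. By rank the level did rise: Spearman's rho was 0.323, above that of MALAT1 (0.306) and NEAT1 (0.180). Pearson's r was 0.105. Both lay below the medians of those 74 genes, 0.683 for rho and 0.737 for r. Accordingly its share fell along RNA content, with rho = -0.375 and r = -0.411, and 10 of 2810 genes had a lower rho. The RNA-poor cells 16 and 10 weighed on the slope: without cell 16 it was 0.230, and without both 0.304, still below all 74 genes in the full set of cells.

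MALAT1 scattered widely around its relation to RNA content. Its slope was 0.770, within the range of genes of like abundance (median 0.948), of which 6 of 71 were lower. Leaving out cells 35 and 34, the highest in share, gave 0.959. Its rho per ERCC UMI was 0.306 and its r 0.344. All 71 genes of like abundance had a higher rho (0.323 to 0.851, median 0.694), the lowest of them being RNA28S5. As a share, MALAT1 showed little relation to RNA content (rho = -0.0525, r = -0.126), near the median rho of the 71 genes (-0.0441).

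The spike-in count of a cell, a measure of capture, was not mirrored by MALAT1. Its UMIs had a rho of 0.00314 with the ERCC UMIs of the same cell, and all 71 genes of like abundance were higher (0.239 to 0.654, median 0.479). RNA28S5 UMIs had a rho of 0.409 with ERCC UMIs, where 58 of 74 genes of like abundance were higher. NEAT1 stood at 0.0540, with 72 of 1219 genes of like abundance lower.

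NEAT1 gave a slope of 0.602, a rho of 0.180 and an r of 0.165 with RNA content. Of 1219 genes within 1.5 times its mean, 105 had a lower slope and 100 a lower rho. Leaving out 1 cell moved the slope between 0.443 (without cell 50) and 0.778 (without cell 16). With a median of 1 UMI these values are weak and carry much counting noise.

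**Figure D3:**
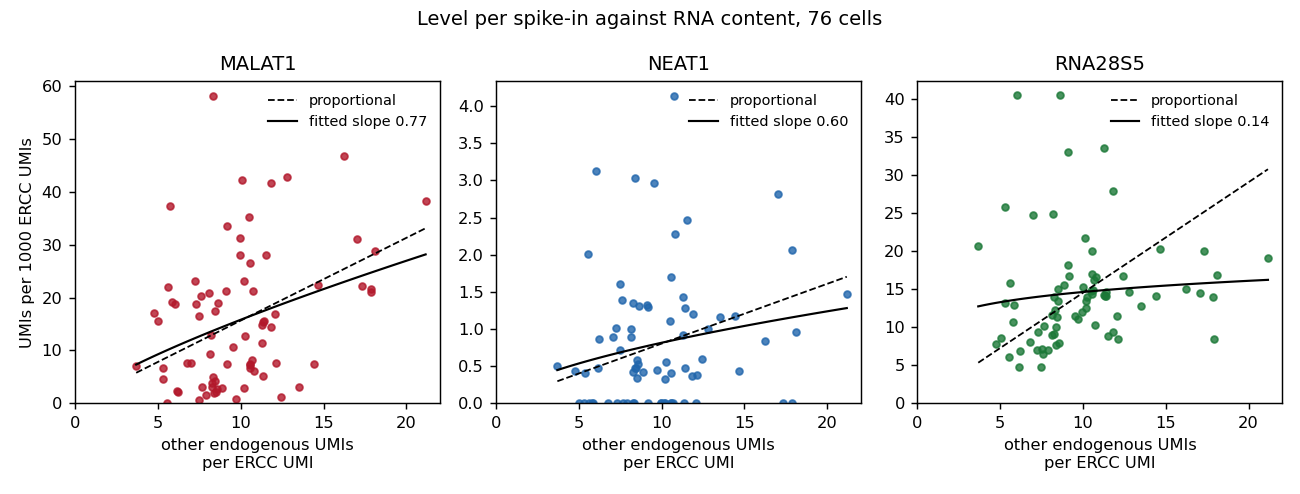
UMIs per 1000 ERCC UMIs of each RNA (vertical axes) against other endogenous UMIs per ERCC UMI (horizontal axes), 1 point per cell, 76 cells; the dashed line is proportional scaling and the solid line the fitted slope. The fitted line of RNA28S5 (slope 0.138) is nearly flat, while MALAT1 (0.770) and NEAT1 (0.602) scatter around lines closer to proportional.

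**Figure D4:**
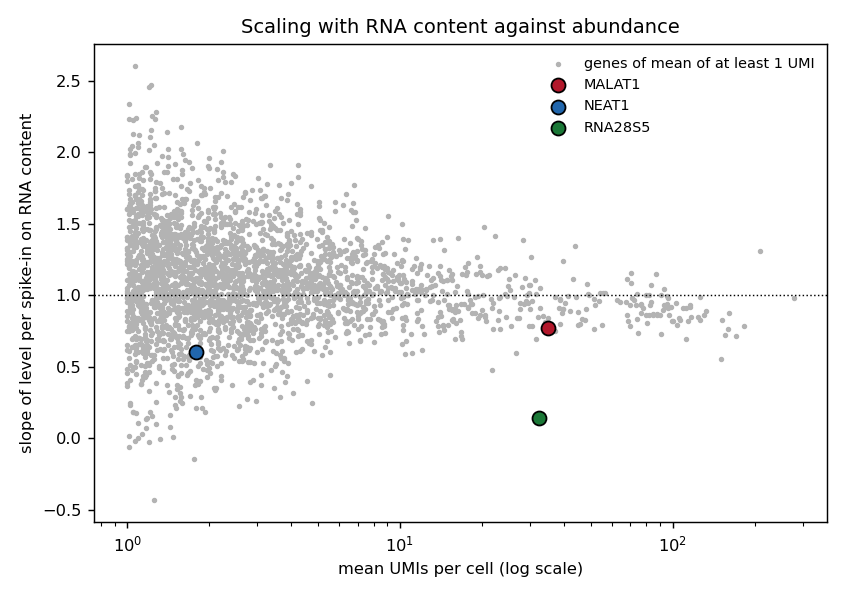
Slope of the level per spike-in on RNA content (vertical axis) against mean UMIs per cell (horizontal log axis) for 2810 genes, with the 3 RNAs as large points and proportional scaling dotted at 1. Slopes spread widely for rare genes and narrow with abundance, and RNA28S5 at 0.138 lies below every gene of like abundance.

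MALAT1 and RNA28S5 were only weakly related over the cells. Between the shares of MALAT1 and RNA28S5 rho was 0.209 and r 0.134 (76 cells that share their depth and totals), and r was 0.180 without the 2 cells farthest from the median MALAT1 share. Between MALAT1 and NEAT1 rho was -0.00934 and r 0.118, which fell to 0.0264 without the 2 cells farthest from the median MALAT1 share. Between NEAT1 and RNA28S5 rho was -0.141 and r 0.208, and without the 2 cells farthest from the median NEAT1 share r was -0.0431, so that its sign rests on those cells. NEAT1 counts are too low for a value near 0 to show that it varied apart from the others. MALAT1 had more UMIs than RNA28S5 in 35 cells and fewer in 41. The ratio of the 2 ran from 0 (cell 32) through a median of 0.915 to 5.75 (cell 35). By UMIs, cells 32 and 56 were the lowest for both RNAs, with 3 NEAT1 UMIs each. They had 8272 and 13919 endogenous UMIs, below the median depth. By share, RNA28S5 in cell 32 was 0.109%, against a median of 0.131%.

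**Figure D5:**
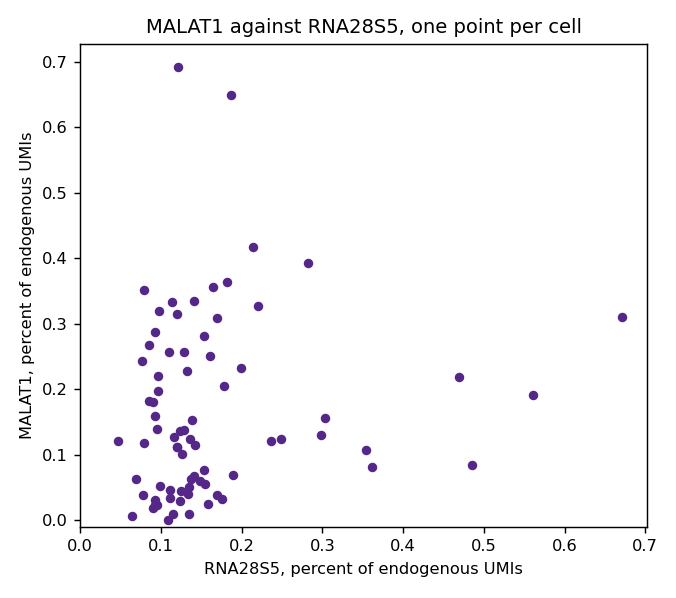
Share of endogenous UMIs of MALAT1 (vertical axis, percent) against that of RNA28S5 (horizontal axis, percent), 1 point for each of 76 cells. The cells highest for MALAT1 (up to 0.693%) are not those highest for RNA28S5 (up to 0.671%), and rho is 0.209.

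Genes of like pattern were ranked by Spearman's rho of shares over the 76 cells, among genes with a mean of at least 5 UMIs. The ranks are descriptions, since all shares use the same totals. For MALAT1, over 645 genes with a median rho of -0.00284, 4 of the 5 most alike are given: the ribosomal protein gene RPL35 (0.532), the splicing regulator gene HNRNPA1 (0.527), RPL13 (0.516) and YBX1 (0.473), which encodes an RNA-binding protein. The least alike were the mitochondrial transfer RNA MT-TP (-0.549), NHP2L1 (-0.529), a snoRNP and spliceosome protein gene, and GPX4 (-0.502), a peroxidase gene. With levels per ERCC UMI those 4 had a rho of 0.483 to 0.569, and the last 3 stood at -0.258, -0.145 and -0.123.

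For RNA28S5 (median rho -0.0105 over 645 genes) the most alike were YBX1 (0.469), the initiation factor gene EIF2S2 (0.351), the glycolytic ENO1 (0.351), RPL11 (0.345) and RPL35 (0.342). The least alike were the chaperone gene HSPA8 (-0.455), the ubiquitin-conjugating enzyme gene UBE2N (-0.454) and the tubulin gene TUBA1C (-0.438), which were at -0.00648, -0.0963 and -0.133 per ERCC UMI. YBX1 and RPL35 stood among the 5 most alike for both MALAT1 and RNA28S5. For NEAT1 (median -0.0279 over 646 genes) the values were lower. The most alike were the long non-coding RNA XIST 0.345 (0.397 per ERCC UMI), CISD1 0.341, the speckle protein gene SON 0.300, the prefoldin gene PFDN5 0.299 and HNRNPAB 0.267. The least alike were RPL7P16 -0.335, the actin gene ACTB -0.331 and ITGB3BP -0.330. At 1.79 UMIs per cell such values are too weak to read.

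Proteins of the bodies these RNAs belong to were set beside them, as counts of positive rho among members averaging at least 1 UMI. Over all 2807 other genes, 1337 were positive for MALAT1, 1226 for NEAT1 and 1081 for RNA28S5, with medians of -0.00875, -0.0170 and -0.0424. Of 18 nuclear speckle genes, led by SRSF7 (19.9 ± 11.5 UMIs) and SRSF3 (17.7 ± 9.95), both splicing factors, 6 were positive with MALAT1 (median -0.0851, from SRSF5 at -0.434 to SRSF11 at 0.260). Of 19 paraspeckle genes 14 were positive with NEAT1 (median 0.0402, from SMARCA4 at -0.186 to MATR3 at 0.296). NEAT1 counts are too low for these values to be read closely. The most abundant of the 19 genes were RBMX (10.3 ± 7.40 UMIs) and HNRNPR (9.05 ± 7.65), both genes of RNA-binding proteins. The genes of core paraspeckle proteins, named for that role, were modest in count: SFPQ gave 4.32 ± 3.93 UMIs, NONO 3.33 ± 2.16 and PSPC1 0.789 ± 1.17. Of 10 genes for RNase P, which cuts the MALAT1 3' end, and for RNA methylation, led by POP7 (5.37 ± 4.61 UMIs) and RPP21 (3.86 ± 2.88), 7 were positive with MALAT1 (median 0.0329).

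Genes that make and process rRNA were set beside RNA28S5 in the same way. Of 10 genes of RNA polymerase I and its factors, 3 were positive with RNA28S5 (median -0.0835). The most abundant were the shared subunit genes POLR2L (14.5 ± 7.67 UMIs) and POLR2H (7.91 ± 5.95). POLR1A (mean 0.368 UMIs), POLR1B (0.776), UBTF (0.553) and RRN3 (0.579) averaged under 1 UMI and were not counted. Of 19 genes of rRNA processing and the nucleolus, led by NPM1 (87.2 ± 44.6 UMIs), NHP2 (16.3 ± 9.04) and NHP2L1 (15.9 ± 8.84), 5 were positive (median -0.0981). By contrast 59 of 83 ribosomal protein genes were positive with RNA28S5 (median 0.0792) and 55 of 83 with MALAT1 (median 0.0877). Their summed share, 29.6% ± 3.20 of endogenous UMIs, had a rho of 0.199 with the RNA28S5 share, but an r of 0.0618. With the MALAT1 share rho was 0.225 and r 0.217. All these shares use the same totals, and the part of that was not tested. Ribosomal protein genes have many near-identical pseudogenes, so single members are uncertain.

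Mitochondrial RNAs ran against MALAT1 and RNA28S5. Of 23 mitochondrial genes 1 was positive with MALAT1, MT-RNR2 at 0.231, and the median was -0.325. With RNA28S5 0 of 23 were positive (median -0.162), and with NEAT1 16 of 23 (median 0.0853). The summed mitochondrial share, 6.12% ± 2.30 of endogenous UMIs, had a rho of -0.309 with the MALAT1 share (r = -0.282) and -0.259 with that of RNA28S5 (r = -0.151). A larger mitochondrial share lowers all other shares, and its part in these values was not tested.

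XIST, the nuclear long non-coding RNA of X inactivation, was close to MALAT1 in abundance and spread. It gave 29.7 ± 27.1 UMIs per cell and a dispersion of 19.8, place 7 of 2810, so a wide spread was not particular to MALAT1. XIST was not in the list of other non-coding RNAs and is given because it ranked first beside NEAT1. Of 11 RNAs of that list averaging at least 1 UMI, the most abundant besides the mitochondrial rRNAs were the snoRNA host RNAs SNHG5 (21.99 ± 11.4 UMIs, dispersion 2.52), ZFAS1 (12.9 ± 8.21, 2.47) and SNHG8 (11.5 ± 7.26, 2.94), all also less abundant than MALAT1. RN7SL1 and RN7SL2, the RNA of the signal recognition particle, gave 1.42 ± 1.53 and 2.01 ± 2.34 UMIs and had a rho of 0.306 and 0.293 with MALAT1, from counts too low to read closely. RN7SK was seen in 43 cells (56.6%), and RPPH1, the RNA of RNase P, in 16 (21.1%, 95% interval 12.5% to 31.9%). Hypoxia and p53 are known to induce NEAT1, and of their listed targets 4 averaged at least 1 UMI, all of them hypoxia targets. With NEAT1, ADM (rho 0.135) and PGK1 (0.0292) were positive, and LDHA (-0.00951) and BNIP3 (-0.0598) were not. LDHA gave 17.3 ± 11.1 UMIs and PGK1 7.89 ± 6.23.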

How the data were processed

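The authors deposited raw UMI counts, as whole numbers, in 1 table of genes by cells. Tools listed in the submitters' processing notes are STAR 2.4.0a and cutadapt 1.2.1, with hg19 as the build; their roles, the UMI counter, the annotation and the handling of multiply mapping reads were not stated in these sources. A row named GENE that repeats the column numbers (0.197% of the sum of values) was left out, leaving 17513 gene rows and 80 ERCC rows. Columns were matched to cells by run name and number, and 0 pairs of cells were identical. Members and lists were chosen with earlier results of these data known. Genes named as alike are the 5 highest and 3 lowest by Spearman's rho of shares at a mean of at least 5 UMIs. From each list the most abundant were named, with a few others chosen after their values were seen. From the resulting names 1 gene is not reported here. Shares, dispersions and slopes were computed with Python 3.11.15, numpy 2.4.6, scipy 1.17.1 and pandas 2.3.3 and tested on simulated counts. Alternatives were shallow cells left out (5 under 10483 UMIs), tag collisions corrected for 20736 tags (the tag in the labels' protocol; the column names carry a longer one), thinning to 10940 UMIs (71 cells), other totals and pooled shares. GENCODE 29 is on GRCh38, so only transcript positions were used.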

Additional observations from a re-analysis of the deposited data

How the results depend on the processing

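Across 72 recomputed values for level, spread, rho and slope, 64 kept their direction and stayed near the reported value (within 1 SD over cells for levels, 1.5 times for dispersions and slopes, and 0.1 for rho). The limits for rho, dispersions and slopes were set after the values had been seen. For levels the limit is wide: the share was 0.166% ± 0.140 for MALAT1 and 0.00868% ± 0.0102 for NEAT1. The level values could therefore hardly fall outside it and say little about robustness. Thinned to 10940 UMIs, dispersion was 13.7 for MALAT1 and 7.98 for RNA28S5, as fewer UMIs lower it by construction (ranks 5 and 13 of 1589 genes). Scaled by spike-ins it was 7.36 for RNA28S5. With shares in place of levels per ERCC UMI, the rho with RNA content turned to -0.0525 for MALAT1, -0.0376 for NEAT1 and -0.375 for RNA28S5, since a share divides by the endogenous total. The Pearson r of log2 values was 0.212 for RNA28S5, and the cause was not tested. With separate spike-in sets for the 2 measures, added after seeing the data, rho was 0.337, 0.181 and 0.322. Without the 2 cells of highest share (16 and 10), also added after seeing the data, the RNA28S5 slope was 0.304 in place of 0.138. No paired analysis was possible because there is 1 group. Depth limits NEAT1 most: its counts were 0 to 8 UMIs.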
